A study of Mus musculus with 20 samples.

Results

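Sperm DNA methylation was examined at the promoters of 746 transcripts that carry a RIKEN clone name from a testis cDNA library. Members were the symbols of the promoter table that begin with 1 of 7 clone prefixes (1700, 4921, 4922, 4930, 4931, 4932 or 4933) and end in Rik, lie on chromosomes 1 to 19, and were marked by the authors neither as part of the sperm proteome nor with the gene ontology term spermatogenesis. Of 814 symbols with these prefixes, 36 were on the sex chromosomes, 31 autosomal ones were in the sperm proteome and 1 was marked for spermatogenesis, which left 746 of 22480 promoters (3.32%). The prefix 1700 gave 300 members, 4930 gave 281, 4933 gave 98, 4921 and 4931 gave 25 each, 4932 gave 14 and 4922 gave 3. By gene ID, 744 members were found in the RefSeq gene table of GRCm38.p6, where 515 (69.0%) are long non-coding RNAs (lncRNA), 208 (27.9%) are protein-coding and 19 are transcribed pseudogenes. Among the other autosomal promoters of the table, 87.9% were protein-coding and 5.65% lncRNA.

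The sperm came from 8-week-old F1 males of the inbred strains C57BL/6J and FVB/N, with 5 males in each of 4 groups, and each promoter was measured by MBD-sequencing. Mothers of the DEHP groups were given bis(2-ethylhexyl)phthalate in corn oil by mouth, at 300 mg/kg/day from day 9 to day 19 of gestation, and mothers of the control groups received corn oil alone. The question behind the comparisons was whether this prenatal exposure alters sperm methylation, and whether it does so alike in both strains. DEHP and control DNA went to sequencing as separate submissions, and the 2 treatments thus cannot be told apart from the 2 submissions in any DEHP comparison below. The labels do not say which males shared a litter.

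A RIKEN clone name is given to a transcript known at first only as a full-length cDNA, with the leading digits naming the library the clone came from. Testis libraries are a rich source of such names, because meiotic and post-meiotic germ cells transcribe an unusually large part of the genome, including many lncRNAs and small proteins with no role elsewhere. Promoters poor in CpG are generally methylated in sperm, whereas CpG islands are generally unmethylated. In MBD-sequencing, DNA is enriched with a protein domain that binds methylated CpG before sequencing. The reads over a promoter then depend both on how much of it is methylated and on how many CpG (CG sites) it offers for capture.

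To show what the assay reads at these promoters, the 200 bases with the most CG sites among the 2000 bases before the gene start are given below for 7 members, 5′ to 3′ on the strand of the gene, with CG sites in capitals. The sequence is that of the C57BL/6J reference (RefSeq, GRCm38.p6). 1700042G07Rik, with 10 CG sites in chr4:116172272-116172471 (+ strand), was lower with DEHP in both strains. 1700021F07Rik (10 in chr2:173520812-173521011, +) and 1700030M09Rik (10 in chr8:121542468-121542667, +) were lower with DEHP in both strains, with libraries that could not overlap in FVB/N for the former and in C57BL/6J for the latter. 4930557J02Rik (4 in chr5:34118220-34118419, +) was higher with DEHP in FVB/N. 4930556C24Rik (4 in chr16:85818271-85818470, +) and 4921524J17Rik (18 in chr8:85432842-85433041, - strand) differed between the strains in controls. 4930509E16Rik (41 in chr9:72532039-72532238, -) held the richest window that overlaps no exon, and was chosen after the values were seen to show a CpG island. The window of 1700030M09Rik overlaps an exon of the lncRNA Gm27045, that of 4921524J17Rik an exon of 1700051O22Rik, and the others overlap no exon of GENCODE M21.
1700042G07Rik: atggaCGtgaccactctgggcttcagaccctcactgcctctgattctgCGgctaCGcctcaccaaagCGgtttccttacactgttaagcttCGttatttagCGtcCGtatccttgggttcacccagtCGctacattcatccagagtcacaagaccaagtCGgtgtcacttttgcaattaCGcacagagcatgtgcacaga
1700021F07Rik: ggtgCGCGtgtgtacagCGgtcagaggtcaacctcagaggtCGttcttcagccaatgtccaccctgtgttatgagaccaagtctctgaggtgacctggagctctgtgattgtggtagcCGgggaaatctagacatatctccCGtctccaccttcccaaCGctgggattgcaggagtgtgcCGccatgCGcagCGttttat
1700030M09Rik: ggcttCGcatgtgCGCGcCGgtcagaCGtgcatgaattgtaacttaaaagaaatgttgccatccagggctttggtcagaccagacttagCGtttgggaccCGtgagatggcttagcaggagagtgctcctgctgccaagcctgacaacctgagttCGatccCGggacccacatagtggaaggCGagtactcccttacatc
4930557J02Rik: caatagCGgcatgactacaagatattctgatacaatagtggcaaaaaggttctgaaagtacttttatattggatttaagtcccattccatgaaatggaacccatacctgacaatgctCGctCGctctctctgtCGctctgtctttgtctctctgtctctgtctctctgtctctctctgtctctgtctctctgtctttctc
4930556C24Rik: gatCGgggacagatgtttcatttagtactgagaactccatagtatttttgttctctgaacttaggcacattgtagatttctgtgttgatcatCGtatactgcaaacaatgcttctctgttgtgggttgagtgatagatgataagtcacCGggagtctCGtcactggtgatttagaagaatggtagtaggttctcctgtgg
4921524J17Rik: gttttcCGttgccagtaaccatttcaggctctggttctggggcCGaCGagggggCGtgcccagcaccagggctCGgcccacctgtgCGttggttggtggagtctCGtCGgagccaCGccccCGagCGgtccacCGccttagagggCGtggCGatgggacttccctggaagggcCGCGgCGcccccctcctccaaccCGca
4930509E16Rik: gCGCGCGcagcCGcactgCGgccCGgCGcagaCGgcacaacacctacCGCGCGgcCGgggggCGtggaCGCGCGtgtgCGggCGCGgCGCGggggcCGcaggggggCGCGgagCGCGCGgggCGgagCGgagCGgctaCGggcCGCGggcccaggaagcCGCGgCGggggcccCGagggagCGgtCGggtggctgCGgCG

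The names were checked against expression scores that the authors list for testis cell types from an independent dataset. A score was present for 467 members, and its median was 4.11 in spermatogonia and 4.24 in Sertoli cells, against 6.34 in spermatocytes and 7.21 in spermatids. Over all 17133 promoters with a score the medians were 5.80, 5.71, 5.67 and 5.68 in the same order, so the members lay below the rest in the first 2 cell types and above them in the last 2. The scale of the scores is not given in the sources used here, so they are compared only as differences. Spermatids had the highest of the 6 scores in 279 members (59.7%, against 31.4% of all promoters), spermatocytes in 127 (27.2%), total testis in 38, tubules in 12, Sertoli cells in 8 and spermatogonia in 3 (0.642%, against 21.9%). A spermatid score more than 2 above both the spermatogonia and the Sertoli score was found in 264 members (56.5%), compared with 10.3% of all promoters, 6.59% of the promoters of other autosomal RIKEN names, 36.4% of those marked for spermatogenesis and 67.0% of those of named testis families (Spata, Tex, Tssk, Odf, Catsper and the like). The share was 72.4% for the prefix 1700 and 46.4% for 4930, and it held for 136 of 182 protein-coding members and 120 of 271 lncRNA members. Most members with a score thus showed the germ cell pattern that the clone names imply, while 279 members had no score and could not be checked. Scores of tubules and total testis are from mixed cells, where fewer cells of a type and less RNA per cell cannot be told apart.

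**Figure D1:**
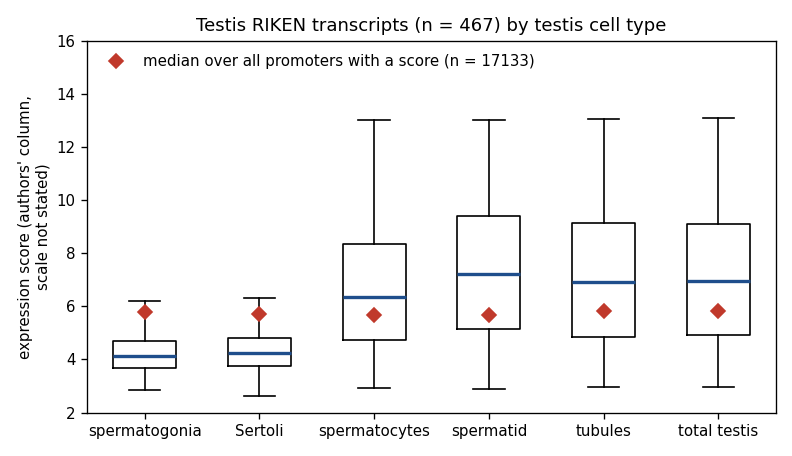
Expression score (authors' column, scale not stated) of the 467 testis RIKEN transcripts that have one, by cell type or tissue. Boxes give the median and quartiles, whiskers the range within 1.5 box lengths, and red diamonds the median over all 17133 promoters with a score. Member medians run from 4.11 in spermatogonia to 7.21 in spermatids, while the diamonds stay between 5.67 and 5.82.

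CG sites were fewer than at most promoters. The 2200-base promoters, which run from 2000 bases before to 200 bases after the gene start, held a median of 25 CG sites in the members (quartiles 16 and 40, range 3 to 303), against 45 over all promoters, 39 for the 917 other autosomal RIKEN names, 38 for the 114 promoters of named testis families and 54 for the 383 marked for spermatogenesis. At most 10 CG sites were found in 68 members, 11 to 20 in 217, 21 to 50 in 321, 51 to 100 in 102 and more than 100 in 38, compared with 2006, 2932, 7550, 8169 and 1823 of all promoters. GC content had a median of 45.5% (48.0% over all promoters) and repeat-masked sequence made up 19.3% (19.2%). The lncRNA members, at a median of 25 CG sites, and the protein-coding members, at 28, were close in this measure. The number of CG sites in the table equalled that of the reference sequence in 714 members (95.7%).

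The CG-rich members were often promoters of another gene as well. The start of another protein-coding gene lay inside the promoter of 94 members (12.6%, against 11.4% of all promoters). This was so for 27 of the 38 members with more than 100 CG sites (71.1%, against 35.6% of all promoters in that class) and for 33.3% of those with 51 to 100 (17.6%), but for only 1 of the 68 with at most 10. The 3 members with the most CG sites show this. 4921531C22Rik, with 303, the largest number in the whole table, lies on chr2:179974853-179977052 over the start of Taf4, a subunit of the general transcription factor TFIID. 4933406I18Rik, with 233 (chr7:114414962-114417161), spans the start of the phosphodiesterase gene Pde3b, and 4930593A02Rik, with 191 (chr3:58690589-58692788), that of the ubiquitin ligase gene Siah2. With these 94 included, 278 members (37.3%) overlapped another protein-coding gene, against 26.8% of all promoters.

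Levels are the authors' group means of normalized reads, with the authors' SD over 5 libraries. Every promoter is 2200 bases long, so levels can be compared between members. Single-library values were not used, the depth of each library is unknown, and no test between animals was run. According to the study's methods, DEHP libraries had on average more read-pairs, with slightly longer reads, than control libraries. In C57BL/6J the median level of the members was 8.1 with control and 7.8 with DEHP, and in FVB/N it was 4.8 with control and 7.45 with DEHP, compared with 5.0, 5.3, 3.0 and 4.9 over all promoters. The members thus lay above the median promoter in all 4 groups. Other autosomal RIKEN names were close to them, at 7.6, 6.9, 4.4 and 6.5, whereas promoters marked for spermatogenesis, which have more CG sites, were at 4.8, 4.9, 3.5 and 4.5. By gene type, the lncRNA members had medians of 7.8, 8.1, 4.7 and 7.6 and the protein-coding members 8.9, 7.65, 5.2 and 6.8. The members made up between 4.17% and 4.44% of the reads summed over all promoters in each group. At means of 5 to 10, the median ratio of SD to mean over members was 0.409, 0.377, 0.622 and 0.372 in the 4 groups. Over all promoters it was 0.425, 0.380, 0.627 and 0.350, so FVB/N controls were the most variable in both.

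Level was highest at 21 to 50 CG sites, as over all promoters, and the members lay above all promoters of their class in every class up to 100 CG sites. At 21 to 50 CG sites the members had medians of 15.4, 11.5, 8.6 and 11 (C57BL/6J control and DEHP, then FVB/N control and DEHP), above the 10.2, 8.2, 5.8 and 7.9 of all promoters in that class, although their own CG sites were fewer (median 29 against 34). Other RIKEN names of that class were at 16.7, 11.1, 9.2 and 10.6, so the higher level was not particular to testis clones. At 11 to 20 CG sites the members were at 7.9, 8.5, 4.3 and 7.9 against 6.9, 7.7, 3.7 and 7.2, and at 10 or fewer at 2.55, 4.35, 1.65 and 3.85 against 1.4, 3.0, 1.1 and 2.65. At 51 to 100 they were at 5.9, 5.3, 3.55 and 5.05 against 4.3, 4.4, 2.7 and 4.0. Above 100 CG sites the order turned, with 1.8, 1.8, 1.6 and 1.65 in the members against 2.4, 2.3, 1.8 and 2.2. CG sites were not matched within a class. Their medians were 9 in the members against 7 over all promoters at 10 or fewer, 16 against 16 at 11 to 20, 67 against 69 at 51 to 100 and 135 against 120 above 100. Across the 746 members CG sites and mean level had a Pearson correlation of -0.096 and a Spearman correlation of 0.070, which, since the level peaks in a middle class, describes the relation poorly.

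**Figure D2:**
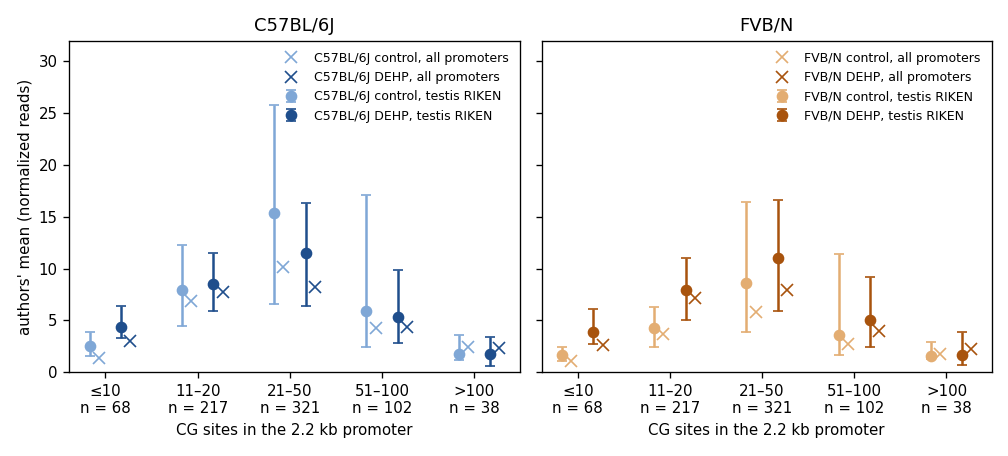
Level (authors' mean, normalized reads) of testis RIKEN promoters by class of CG sites in C57BL/6J (left) and FVB/N (right). Circles are medians over the members of a class and bars their quartiles, not errors between animals, and crosses are medians over all promoters of the class. The members peak at 21 to 50 CG sites, at 15.4 in C57BL/6J controls and 8.6 in FVB/N controls, and fall to 1.8 and 1.6 above 100.

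The start of a second gene went with low level. The 61 members with more than 50 CG sites and the start of another protein-coding gene had medians of 2.7, 2.9, 1.9 and 3.1, whereas the 79 such members without it were at 5.5, 4.5, 3.5 and 4.6, and all 9992 promoters above 50 CG sites at 3.85, 4.0, 2.5 and 3.7. CG sites differed as well, with medians of 89 and 67, and their part in this difference was not tested. The level of 4921531C22Rik was 1.7 ± 0.7, 1.3 ± 1.1, 1.8 ± 0.6 and 2.2 ± 1.3 normalized reads in the 4 groups (mean ± SD, n = 5, in the order above). At the other end, 4930440C22Rik (chr1:94795442-94797641), the member with the fewest CG sites at 3, had 2.1 ± 0.9, 2.2 ± 0.9, 0.9 ± 0.9 and 2.0 ± 0.4. 4930572K03Rik and 4932414J04Rik, with 4 CG sites each, reached at most 4.8 and 1.0. Only 2 members lay under 1 normalized read in every group (0.268%, against 0.703% of all promoters). These were 1700008F21Rik, now Ccdc7b, with 36 CG sites, and 4930486I03Rik with 6.

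The highest mean over the 4 groups was that of the lncRNA 4930565N06Rik (chr16:36896990-36899189, 43 CG sites), at 63.0 ± 24.8 and 38 ± 17.3 in C57BL/6J (control and DEHP) and at 29.9 ± 19.6 and 45.8 ± 11.2 in FVB/N. It was followed by 1700010B08Rik (66.2, 28.2, 46.0 and 31.5), the pseudogene 4930594C11Rik (65.1, 22.4, 49.4 and 31.9) and 1700039E15Rik, now Slc6a21, named as a solute carrier (69.8, 22.8, 48.2 and 23.5). All 4 held between 41 and 48 CG sites. The spread between libraries was wide in 4930565N06Rik, whose SDs allow single libraries of its 4 groups to overlap. Expression did not sort the levels, since the 264 members with a high spermatid score had medians of 8.65, 8.4, 4.75 and 7.25 and the 203 members with a score but without this pattern had 7.9, 7.8, 4.7 and 7.7.

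Members with a present gene name include genes with known roles in male germ cells, which were picked by role and not by value. Majin (1700123I01Rik) and Terb2 (4933406J08Rik) encode partners that attach telomeres to the nuclear envelope in meiosis, and Meikin (4930404A10Rik) encodes a kinetochore protein of meiosis. Their promoters held 46, 32 and 22 CG sites. In the order of groups used above, Majin was at 5.0, 5.9, 5.6 and 3.3 normalized reads, Terb2 at 4.9, 7.6, 6.0 and 8.6 and Meikin at 7.8, 7.8, 6.9 and 5.8. None of the 3 was separated between groups. Genes named for cilia and flagella ranged more widely, with Cfap206 (1700003M02Rik) at 8.6, 2.6, 7.6 and 2.1 and Cfap20dc (4930452B06Rik) at 19.6, 15.3, 16.5 and 21.2. Cfap97d1 (1700006E09Rik) was at 5, 6, 3.4 and 3.9. Cfap299 (1700007G11Rik) was at 21.8, 12.7, 12.7 and 13.8, and Cfap97d2 (4932443I19Rik) at 21.4, 13.2, 11.9 and 15.3. Spem2 (4933402P03Rik), named for spermatid maturation, was at 16.6, 13.1, 10.9 and 7.8. In all, 78 members had a present symbol other than the clone name.

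Motifs of 2 factor families known in spermatids were searched in all 22480 promoters. The cAMP response element (TGACGTCA, bound by CREM, a master regulator in spermatids) was in 24 members (3.22%, against 3.79% of all promoters). The X-box (GTTNCC, any 2 bases, then GGNAAC, bound by RFX factors, which drive ciliary and spermatid genes) was in 18 members (2.41%, against 0.965% of all promoters and 1.42% of the other RIKEN names). Both motifs read the same on either strand and neither holds the other, and a match is a description of the sequence only. In 17 of the 18 the X-box began within 150 bases of the gene start, a distance chosen after the positions were seen, which is 2.28% of all members, against 0.454% of all promoters, 0.545% of other RIKEN names and 1.75% of named testis families. Of all 217 promoters with an X-box, 102 (47.0%) had it within that distance. The matches of 7 members are given with the X-box in capitals and 8 bases on either side (chosen after their positions were seen), 5′ to 3′ on the strand of the gene.
1700010I14Rik: tatttactGTTTCCATGGCAACtgcagctt
1700029J07Rik: gttctcccGTTCCCACGGCAACgcggccta
1700034J05Rik: gttcctttGTTGCCATGGTAACcaacagtc
4930564B18Rik: cgtgttccGTTCCCATGGTAACagagagcg
4931428L18Rik: gttgctctGTTGCCTGGGTAACaactttgt
4930452B06Rik: gcccctcaGTTGCCTGGGCAACggctcagc
4930455B14Rik: gctgagccGTTGCCCAGGCAACtgaggggc

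In order, these lie at chr17:8988300-8988329 (+), chr8:45975256-45975285 (-), chr6:146954432-146954461 (-), chr14:75642203-75642232 (+), chr1:31222772-31222801 (-) and, for the last 2, at chr14:8666371-8666400 on opposite strands, since 4930452B06Rik (Cfap20dc) and 4930455B14Rik are a divergent pair that shares a single X-box. The motif began 25 bases before the start in 1700010I14Rik and 1700029J07Rik, 32 before in 1700034J05Rik, 48 before in 4930564B18Rik (now Erich6b) and 137 before in 4931428L18Rik. Spermatid scores of the first 2 were 11.99 and 10.01, against 3.78 and 3.71 in spermatogonia, and a high spermatid score was found in 8 of the 12 X-box members with a score. The 18 promoters held a median of 34.5 CG sites and had median levels of 7.35, 6.15, 3.8 and 6.55 in the 4 groups, near those of the members as a whole. By the mean of the 4 groups, the lowest and the highest of the 18 were the 2 that share an X-box, with 1.2 ± 0.9, 1.7 ± 0.2, 1.1 ± 1.2 and 0.9 ± 1.0 in 4930455B14Rik and 19.6 ± 4.6, 15.3 ± 6.9, 16.5 ± 3.6 and 21.2 ± 4.4 in 4930452B06Rik. 0 of the 18 were separated between DEHP and control in either strain.

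For every comparison between groups the log2 ratio of means with 1 normalized read added is given, and a member is called separated where its 5 libraries of 1 group and its 5 of the other cannot overlap, given the mean and SD of each (mean ± 1.79 SD, the furthest that 1 of 5 values can lie from its mean). This is no test and carries no p-value. The groups differ in total signal, since the authors' means of all promoters sum to 226268 (control) and 153283 (DEHP) in C57BL/6J and to 141092 and 150346 in FVB/N, so each comparison is also given with the groups scaled to equal sums and to equal medians. Equal sums raised the median log2 ratio of all promoters by 0.43 for DEHP in C57BL/6J and moved it by -0.54 between strains in controls. Equal medians moved it by -0.53 for DEHP in FVB/N and by -0.58 between strains in controls. Promoters of 3 imprinted genes, listed for a mark methylated in sperm, had a median of 25.3 normalized reads in C57BL/6J controls. The 9 listed as unmethylated in sperm had 3.3, with Rasgrf1 (2.4) low in the first list and Nnat (26.5) high in the second. Whether the marked region of each gene lies inside its promoter was not checked, so the lists are no strict check of the assay. The same medians were 9.2 and 4 in C57BL/6J DEHP, 7 and 2.4 in FVB/N controls, and 5.2 and 4.4 in FVB/N DEHP. The lists thus lay closest in FVB/N DEHP, where H19 (17.5) lay above every promoter of the second list but Meg3 (5.2) and Rasgrf1 (2.6) did not.

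In C57BL/6J, DEHP and control differed little at the median member, and the members with separated libraries were all lower in DEHP. The median log2 ratio of the members was -0.11, compared with -0.10 over all promoters. With equal sums it was 0.34 (all 0.33) and with equal medians -0.18 (all -0.16). 16 members (2.14%) were separated and lower in DEHP, against 1.42% of all promoters, and 0 were separated and higher, against 0.249%. With equal sums 3 were lower (all promoters 0.129%) and 8 higher (1.02%), and with equal medians 20 were lower (1.88%) and 0 higher (0.222%), so the direction of the majority rests on the scaling. A ratio beyond 2-fold was reached by 74 members downwards (9.92%, against 10.7%) and by 30 upwards (4.02%, against 5.09%). Both shares lay near those of all promoters.

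The 16 held between 22 and 77 CG sites, with 10 in the class of 21 to 50 (3.12% of the class, against 2.46% of all promoters of that class) and 6 in that of 51 to 100 (5.88%, against 1.31%). 11 were lncRNAs and 5 protein-coding, types that make up 69.0% and 27.9% of all members. A high spermatid score was found in 8 of the 11 with an expression score, against 56.5% of all members with a score. The body of another protein-coding gene was overlapped by 11, against 37.3% of all members. The lncRNA 1700030M09Rik (chr8:121542388-121544587, 55 CG sites) had the largest ratio, with 47.9 ± 9.9 normalized reads in C57BL/6J controls and 10.5 ± 4.8 in DEHP (log2 -2.09). In FVB/N it was at 33 ± 13.8 and 11.8 ± 3.2 (log2 -1.41), where the libraries were not separated. Its promoter overlaps that of 1700018B08Rik, which starts on the other strand, is protein-coding and was also among the 16, at 18.4 ± 2.4 and 5.9 ± 2.9, so the 2 share sequence and reads and are not independent.

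1700120C14Rik (chr15:99249788-99251987, 77 CG sites), a lncRNA whose promoter holds the start of Mcrs1, was at 59.3 ± 19.6 in C57BL/6J controls and 13.8 ± 5.2 in DEHP (log2 -2.03), and stood at 38.5 ± 10.6 and 17 ± 5.6 in FVB/N. 1700110K17Rik (chr9:40331472-40333671, 52 CG sites), inside Gramd1b, a gene for a sterol transfer protein, was at 55 ± 13.2 and 16.2 ± 6.4 (log2 -1.70). The lncRNA 1700017J07Rik (chr2:168976269-168978468, 27 CG sites) was the tightest of these, at 34.6 ± 3.4 and 11.6 ± 3.8 (log2 -1.50), with FVB/N at 17.8 ± 3.3 and 12.8 ± 4.4. Under all 3 scalings 1700017J07Rik, 1700030M09Rik and 4933416M07Rik (26.2 ± 2.3 and 9.5 ± 2.5, inside Rab11fip1) were separated and lower, 3 members where 0.129% of all promoters were. Among the 16 are also 4933413G19Rik, now Tex52, at 42.5 ± 7.8 and 14.8 ± 5.5, and 1700126H18Rik, which had the smallest ratio (log2 -0.82). 4933416M07Rik, 4933413G19Rik, 1700126H18Rik and 1700018B08Rik fall outside the rule for named members and were added after their values were seen.

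In FVB/N the members were on the whole higher in DEHP, as were all promoters. The median log2 ratio was 0.36 (all promoters 0.35), 0.29 with equal sums (all 0.29) and -0.22 with equal medians (all -0.18), so this direction rests on the scaling too. 5 members (0.670%) were separated and higher in DEHP, against 0.774% of all promoters, and 4 (0.536%) were separated and lower, against 0.859%. With equal sums 4 were higher (all promoters 0.627%) and 6 lower (1.04%), and with equal medians 0 were higher (0.125%) and 27 lower (3.25%). Beyond 2-fold, 109 members were higher (14.6%, against 14.4%) and 19 lower (2.55%, against 2.68%). The members thus had shares close to those of all promoters in every one of these counts.

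The 4 lower members kept their separation under all 3 scalings, as did all 193 promoters (0.859%) separated and lower as deposited. Equal sums and equal medians both lower DEHP against control in FVB/N, so a separation in this direction could not be lost. 1700042G07Rik (chr4:116171372-116173571, 39 CG sites), a protein-coding gene with a spermatid score of 11.3 and a spermatogonia score of 5.24, whose promoter also holds the start of the predicted gene Gm49337, was at 45.2 ± 8.1 normalized reads in FVB/N controls and 16.3 ± 3.2 in DEHP (log2 -1.42). 1700021F07Rik (chr2:173520592-173522791, 59 CG sites), also protein-coding and with a spermatid score of 11.8, was at 49.4 ± 11.1 and 19.5 ± 3.2 (log2 -1.30). The lncRNA 4930568E12Rik (chr9:13105656-13107855), 75.6% of whose promoter is repeat-masked, was at 12 ± 2.6 and 4.6 ± 1.0 (log2 -1.22), and 1700120K04Rik (chr7:127604246-127606445), inside Rnf40, at 36 ± 6.2 and 16.6 ± 1.5 (log2 -1.07). In C57BL/6J the means of the same 4 were 47.2 and 17.1, 67.9 and 21.5, 17.4 and 6.9, and 32.6 and 13.1 (control and DEHP), so each was lower in DEHP there as well. Only 1700042G07Rik was separated in both strains as deposited, at 47.2 ± 12.1 and 17.1 ± 3.4 in C57BL/6J. That is 1 member (0.134%) against 0.173% of all promoters. With equal sums the C57BL/6J libraries of 1700042G07Rik were no longer separated.

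The 5 higher members held 10 to 26 CG sites, with a median of 12 against 25 over all members. Of the 5, 1 held at most 10 and 3 held 11 to 20, as did 31 and 62 of all 174 promoters separated in this direction. The lncRNA 4930557J02Rik (chr5:34116740-34118939, 10 CG sites), inside the DNA polymerase gene Poln, was at 1.8 ± 0.7 normalized reads in FVB/N controls and 8.8 ± 2.7 in DEHP (log2 1.81), and at 2.8 ± 1.4 and 7.7 ± 3.7 in C57BL/6J. 4930415F15Rik, now Spata48 (chr11:11487266-11489465, 12 CG sites), had 3.1 ± 1.4 and 12.5 ± 3.3 (log2 1.72) and a spermatid score of 10.4. 4930556C24Rik (chr16:85817211-85819410, 11 CG sites) had 3.4 ± 2.4 and 12.1 ± 2.2 (log2 1.57). Also among them, and named after its values were seen, was 4921529L05Rik, at 5.3 ± 1.6 and 14 ± 2.0. With equal medians 0 of these 5 were separated.

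**Figure D3:**
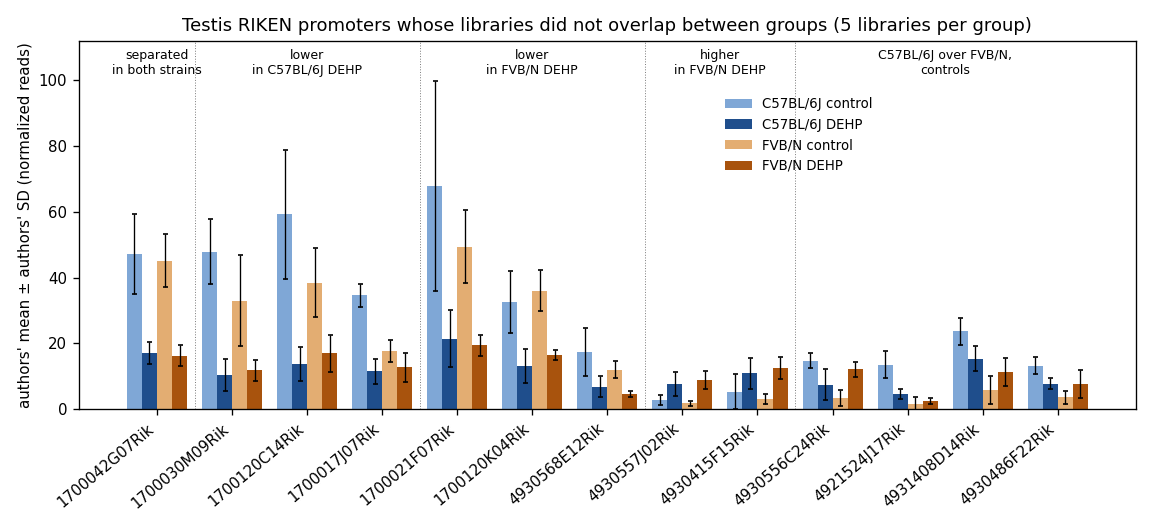
Authors' mean (bars) and authors' SD (error bars, 5 libraries per group) in normalized reads for 13 testis RIKEN promoters whose libraries did not overlap in the comparison named above each block. In the members lower with DEHP the control bar is the taller one in both strains, from 47.2 and 45.2 in 1700042G07Rik to 17.4 and 12 in 4930568E12Rik. The members of the last 2 blocks reach at most 23.7, in 4931408D14Rik.

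The DEHP ratio of a member went with its number of CG sites, as it did over all promoters. In C57BL/6J the median log2 ratio was 0.53 at 10 CG sites or fewer, 0.06 at 11 to 20, -0.40 at 21 to 50, -0.28 at 51 to 100 and -0.28 above 100, and over all promoters it was 0.61, 0.13, -0.34, -0.14 and -0.28. In FVB/N the members had 0.81, 0.69, 0.21, 0.12 and -0.05, and all promoters 0.75, 0.71, 0.24, 0.29 and 0.05. In both strains the ratio was highest at 10 CG sites or fewer, while the lowest class was that of 21 to 50 in C57BL/6J and that above 100 in FVB/N. With equal sums the 5 medians of C57BL/6J were 0.94, 0.54, 0.11, 0.17 and 0.03, so its lowest class was then above 100 as well, and those of FVB/N were 0.79, 0.63, 0.13, 0.05 and -0.12. With equal medians those of C57BL/6J were 0.45, -0.01, -0.47, -0.31 and -0.30, and those of FVB/N 0.35, 0.10, -0.39, -0.42 and -0.53. Across the 746 members the ratios of the 2 strains, which come from separate libraries of the same 2 submissions, had a Pearson correlation of 0.581 and a Spearman correlation of 0.565. Because each treatment was a submission of its own, these ratios describe DEHP libraries against control libraries.

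**Figure D4:**
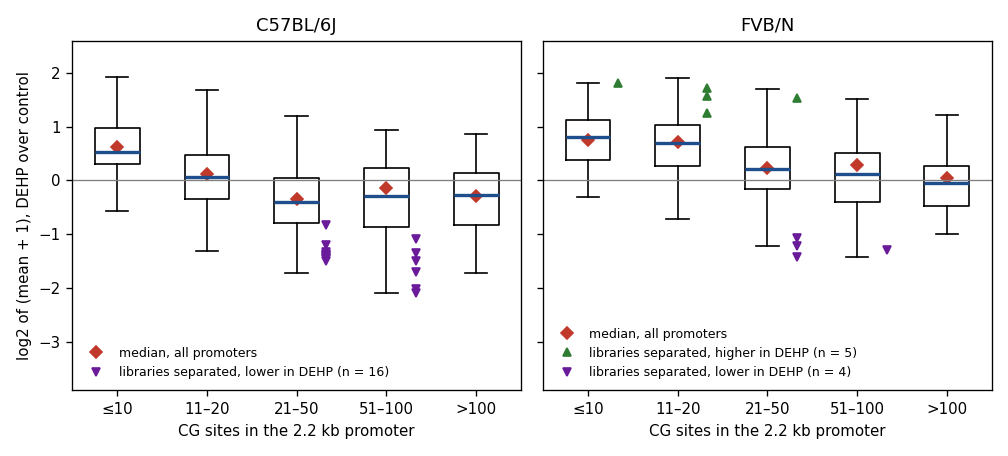
Log2 ratio of authors' means (1 normalized read added), DEHP over control, of testis RIKEN promoters by class of CG sites, as deposited. Boxes give the median and quartiles over members, whiskers the range within 1.5 box lengths, red diamonds the median over all promoters of the class, and triangles the members with separated libraries. From the first class to the last the medians go from 0.53 to -0.28 in C57BL/6J and from 0.81 to -0.05 in FVB/N. The lowest median in C57BL/6J is -0.40, at 21 to 50 CG sites. The separated members lower in DEHP lie at 21 to 100 CG sites.

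Between strains, control libraries of C57BL/6J gave higher values than those of FVB/N at most members as deposited. The median log2 ratio of C57BL/6J over FVB/N in controls was 0.61 (all promoters 0.54), but 0.04 with equal sums (all 0.00) and 0 with equal medians (all -0.04). 9 members (1.21%) were separated and higher in C57BL/6J, against 1.06% of all promoters, and 0 were separated and lower, against 0.0267%. With equal sums 0 were higher (all promoters 0.307%) and 1 lower (0.111%), and with equal medians 0 were higher (0.289%) and 1 lower (0.129%). In DEHP libraries the median ratio was 0.04 (all 0.04), 0.02 with equal sums and -0.05 with equal medians, and 0 members were separated in either direction, against 0.307% and 0.0311% of all promoters. No strain separation of a member as deposited was thus present under all 3 scalings.

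Of these 9 members, 8 were lncRNAs, 4 held more than 10 variants between the strains and 4 held 0. Over all members the shares were 69.0%, 17.7% and 51.6%. Of all 239 promoters separated in this direction, 130 held more than 10 variants and 39 held 0. 4921524J17Rik (chr8:85432642-85434841, 60 CG sites), a protein-coding gene with 17 variants in its promoter, had the largest ratio, with 13.5 ± 4.1 normalized reads in C57BL/6J controls and 1.7 ± 2.1 in FVB/N controls (log2 2.43), and 4.7 ± 1.5 and 2.5 ± 1.0 in the DEHP groups (log2 0.70). Unlike most members it had a higher score in spermatogonia (8.03) than in spermatids (4.62). 4930556C24Rik was at 14.8 ± 2.2 and 3.4 ± 2.4 in controls (log2 1.84), but at 7.5 ± 4.6 and 12.1 ± 2.2 in DEHP (log2 -0.62). The lncRNAs 4931408D14Rik (chr19:37263896-37266095, 39 CG sites; 23.7 ± 4.1 and 5.9 ± 4.2, log2 1.84) and 4930486F22Rik (chr10:86093854-86096053, inside the synapsin gene Syn3; 13.3 ± 2.5 and 3.6 ± 1.9, log2 1.64) held 0 variants. 1700017J07Rik, described above, was also among the 9, and its C57BL/6J control libraries enter both comparisons.

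Members with many variants between the strains had larger ratios in both pairs of groups. In controls the median log2 ratio was 0.55 for the 385 members with 0 variants, 0.59 for the 160 with 1 to 5, 0.50 for the 69 with 6 to 10 and 0.87 for the 132 with more than 10, and in DEHP it was -0.02, 0.00, 0.18 and 0.37. All promoters with more than 10 variants had 0.83 and 0.32. The 3 members with the most variants had higher means in C57BL/6J in both pairs, but none of the 3 was separated in either. 1700123K08Rik, with 77, had log2 ratios of 1.98 in controls and 1.12 in DEHP, 4930444G20Rik, with 72, had 1.53 and 1.33, and 1700054M17Rik, with 59, had 2.20 and 1.01. In FVB/N controls 1700123K08Rik was at 3.2 ± 6.0, with an SD above its mean. Reads were aligned to the C57BL/6J reference, and the part of mismatches in these ratios was not tested.

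**Figure D5:**
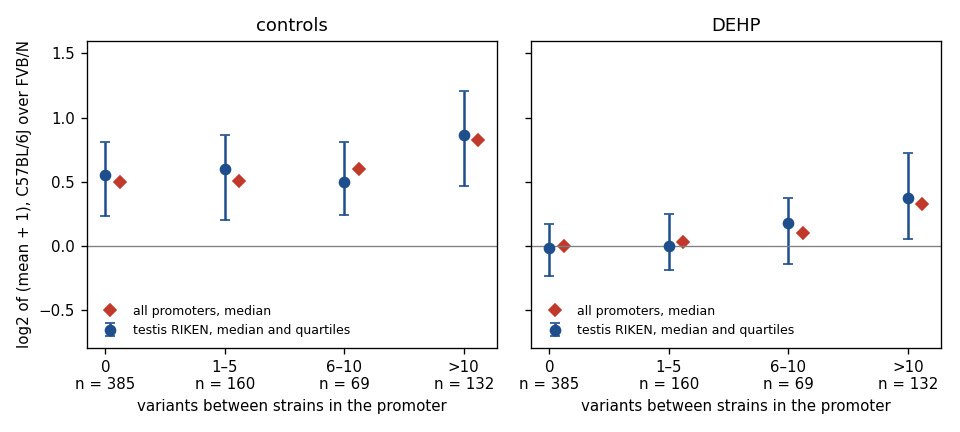
Log2 ratio of authors' means (1 normalized read added), C57BL/6J over FVB/N, of testis RIKEN promoters by number of variants between the strains, in controls (left) and DEHP (right), as deposited. Circles and bars are the median and quartiles over members, and red diamonds the median over all promoters. Members with more than 10 variants lie highest in both panels, at 0.87 and 0.37.

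The DEHP ratio of C57BL/6J less that of FVB/N had a median of -0.56 over the members and -0.50 over all promoters, which became -0.03 with equal sums and -0.05 with equal medians (all 0.02 and -0.01). Separation by DEHP in opposite directions in the 2 strains was found for 0 members and 0% of all promoters. The largest negative difference was that of 4930556C24Rik (log2 -2.47), lower in DEHP in C57BL/6J (14.8 ± 2.2 and 7.5 ± 4.6, libraries not separated) and higher in FVB/N (3.4 ± 2.4 and 12.1 ± 2.2, separated). 4930554C24Rik (log2 -2.36) was at 6.7 ± 2.5 and 4.6 ± 1.6 in C57BL/6J and at 1.3 ± 0.5 and 7.6 ± 4.3 in FVB/N, and 4930429F11Rik (log2 -2.12) at 15.2 ± 5.6 and 11.6 ± 2.2, and 3.2 ± 3.4 and 13.2 ± 3.6. For these 3 the FVB/N control mean was the lowest of the 4. The largest positive difference was that of 4930503E14Rik (log2 1.43), at 2.6 ± 2.7 and 12.6 ± 4.2 in C57BL/6J and at 5.5 ± 7.7 and 8.1 ± 2.3 in FVB/N. 1700001J11Rik (1.26) and 1700022E09Rik (0.94) followed, and 0 of these last 3 were separated in either strain. The difference itself was not tested.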

How the data were processed

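MBD-sequencing was run on sperm of 20 males. Per the labels and methods, read-pairs were aligned to mm10 with Bowtie 0.12.7, filtered, counted per promoter and normalized with edgeR by the authors. For each group of 5 the authors deposited a mean signal in normalized reads and its SD, both to 1 decimal. Expression scores, CG sites, variants and flags are the authors' annotations as deposited. The authors' columns of log2 fold changes, p-values and FDR, for DEHP in each strain and for the difference between strains, were not used.

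The count and limma tests planned for single libraries were replaced by the planned fallback for group means, which is no test. Computed were log2 ratios of means with a pseudocount of 1 (alternative 0.1) and separated libraries (mean ± 1.79 SD, widened by 0.05 for rounding). Depth per library is unknown, so no counting interval is given, and nothing here measures error beyond the authors' SD. Alternatives were equal sums, equal medians, a bound of 2 SD, a filter on a mean of at least 1, and only members whose promoter overlaps no other.

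Members and lists were chosen with earlier results of these data known. Named members are, per comparison and direction, the 4 separated ones with the largest ratio, those separated in both strains, the 4 with the highest level and up to 4 under 1 read, the 3 with most and fewest CG sites, the 3 with the largest strain difference in DEHP ratio each way (at least 5 reads in the higher group of each strain), and the 3 with most variants. Comparison classes were other RIKEN names, promoters flagged for spermatogenesis and named testis families. Sequence came from RefSeq GRCm38.p6, the build of mm10, exons and coding starts from GENCODE M21, and gene types and present symbols from the RefSeq gene table. Python 3.11.15, numpy 2.4.6, pandas 2.3.3, scipy 1.17.1 and matplotlib 3.10.9 were used. Sequences and sites on chromosome 18, where 26 members lie, are not printed here. 1 member that the naming rule selects is not reported here.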

Additional observations from a re-analysis of the deposited data

How the results depend on the processing

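The scaling of the groups moved the results most. With equal sums the C57BL/6J DEHP comparison had 8 members separated and higher and 3 lower, with a median log2 ratio of 0.34 in place of -0.11, and the strain comparison in controls had 0 higher and 1 lower. With equal medians the FVB/N DEHP comparison had 0 higher and 27 lower, with a median log2 ratio of -0.22 in place of 0.36, the strain comparison in controls had 0 higher and 1 lower, and the median strain ratio in DEHP was -0.053 in place of 0.04. Under the bound of 2 SD, which holds if the deposited SD were that of a population, 9 members were lower in C57BL/6J DEHP, 2 higher in FVB/N DEHP and 5 higher in C57BL/6J controls. A population SD of 5 values at or above 0 can reach at most 2 times their mean. Over all promoters with a mean of at least 2, the deposited SD reached 2.28 times the mean in FVB/N controls. The median strain ratio in controls, 0.61 as deposited, was 0.044 with equal sums and 0 with equal medians, and the median strain difference of the DEHP ratio, -0.56 as deposited, was -0.030 and -0.055. FVB/N had 4 members higher and 6 lower with equal sums, against 5 and 4. A pseudocount of 0.1, a mean of at least 1 and members without overlapping promoters turned no direction. The filter on the mean and the limit to members without overlap moved no count by over 1.5 times. The pseudocount does not enter the rule for separation and so could not move a count. Which scaling is closest to the methylation of these sperm was not tested.

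Leaving out each library in turn was not run, since it needs values of single libraries. No paired analysis was possible because the table holds group means without single libraries. Low means limit CG-poor and CG-rich members alike, and a member that is not separated is not shown to be equal.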
